A study of Rattus norvegicus with 12 samples.

Results

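Retinoic acid is made from vitamin A inside the cell. Retinol reaches cells bound to the plasma carrier Rbp4, alcohol and short-chain dehydrogenases oxidise it to retinal, and the retinaldehyde dehydrogenases Aldh1a1, Aldh1a2 and Aldh1a3 oxidise retinal irreversibly to retinoic acid. Crabp1 and Crabp2 bind retinoic acid in the cell, Cyp26 enzymes clear it, and the nuclear receptors Rara, Rarb and Rarg, paired with Rxr partners, act on genes through it. The genes described here are the retinol-oxidising alcohol dehydrogenases Adh1 and Adh7, the 3 Aldh1a enzymes, Rbp4, Crabp1, Crabp2 and Rarb, 9 of the 14217 genes with a probe set of a single symbol on the array. They were covered by 10 of 31042 probe sets, with Adh1 (Adh1c in the current RefSeq gene table) on 2 probe sets and each of the other genes on 1. The set was chosen on measured values of the comparison below, so the values of its members are a description and carry no test.

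All cells were of F111, a rat fibroblast line. A16 cells had grown attached to plastic for 16 h. Colony cells came from NA16 cells, which are F111 cells held without attachment for 16 h, and had spent 7 days in soft agar before they were freed and left to attach briefly. Both groups were kept in Dulbecco's medium with fetal calf serum. Each group had 3 Affymetrix Rat 230 2.0 arrays, labelled biological replicates 1 and 2 and a technical repeat. The labels do not name the culture of the technical repeat. It was taken as a repeat of the first and averaged with it, so that n = 2 cultures per group, and nothing in the labels says more about how separate the cultures were. The SD of the log2 difference from the technical repeat was 0.174 to the first and 0.305 to the second culture in A16, and 0.225 and 0.243 in Colony, so for Colony the arrays hardly separate the choices. The p-values therefore reflect only the spread between these few cultures. In the limma fit that spread was moderated by a variance estimate shared over all probe sets. One label field of Colony biological replicate 2 names a tumour while its title and description name soft agar colonies, so results are also given without that array. The array medians lay between 97.6 and 101.3 RMA units, and the SD of the log2 difference between 2 arrays was 0.174 to 0.331 within a group and 0.673 to 0.762 between groups. The fibroblast markers Vim and S100a4 were bright on every array, whereas Dcn, Lum and Fap lay between 20.7 and 50.6 RMA units. In RNA from a whole culture, fewer cells that carry a transcript and less of it per cell cannot be told apart.

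The regions upstream of the 4 genes with the widest differences are shown because they differed in base composition. The sequences are the 250 bases before the start annotated by RefSeq in assembly GRCr8, written 5′ to 3′ on the strand of the gene, with each CpG in capitals: Adh1 at chr2:229470453-229470702 (+ strand), Adh7 at chr2:229421875-229422124 (+ strand), Aldh1a3 at chr1:129427644-129427893 (- strand) and Crabp1 at chr8:64047181-64047430 (+ strand).
Adh1c: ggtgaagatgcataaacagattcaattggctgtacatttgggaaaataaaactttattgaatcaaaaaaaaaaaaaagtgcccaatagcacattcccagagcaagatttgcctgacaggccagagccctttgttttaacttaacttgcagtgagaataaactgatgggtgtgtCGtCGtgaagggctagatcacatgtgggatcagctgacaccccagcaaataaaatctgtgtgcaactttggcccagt
Adh7: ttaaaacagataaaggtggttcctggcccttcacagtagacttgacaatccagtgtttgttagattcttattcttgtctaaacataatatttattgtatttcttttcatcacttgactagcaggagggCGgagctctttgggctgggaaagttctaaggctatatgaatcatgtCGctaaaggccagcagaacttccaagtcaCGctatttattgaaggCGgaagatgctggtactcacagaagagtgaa
Aldh1a3: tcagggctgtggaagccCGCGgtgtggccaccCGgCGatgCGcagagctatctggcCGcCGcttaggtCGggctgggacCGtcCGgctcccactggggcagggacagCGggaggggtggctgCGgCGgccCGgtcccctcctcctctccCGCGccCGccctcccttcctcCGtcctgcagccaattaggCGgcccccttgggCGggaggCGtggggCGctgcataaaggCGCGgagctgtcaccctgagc
Crabp1: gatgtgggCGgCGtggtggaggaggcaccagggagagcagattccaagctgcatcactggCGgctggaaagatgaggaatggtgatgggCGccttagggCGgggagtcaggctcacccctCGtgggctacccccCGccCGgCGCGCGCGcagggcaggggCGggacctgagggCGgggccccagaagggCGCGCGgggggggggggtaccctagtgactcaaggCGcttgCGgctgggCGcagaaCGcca
The printed upstream bases held 2 CpG for Adh1, 4 for Adh7, 24 for Aldh1a3 and 21 for Crabp1. Over the window of 300 bases that also takes in the start of the transcript, the GC content was 43.3% for Adh1 and 43.0% for Adh7, against 74.3% for Aldh1a3 and 70.7% for Crabp1. The median of all 33469 RefSeq promoter windows was 51.7% GC with 7 CpG. The remaining members spanned 48.3% (Aldh1a1) to 76.0% (Aldh1a2). The windows of both alcohol dehydrogenases and of Aldh1a1 were below that median in GC, with 3 CpG at Adh1, 7 at Adh7 and 1 at Aldh1a1, whereas Aldh1a2, Aldh1a3, Rbp4, Crabp1, Crabp2 and Rarb were above it in both GC and CpG.

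Both alcohol dehydrogenases were far higher in Colony. Adh1 is a class I alcohol dehydrogenase with a broad range of substrates, best known from liver. Its brighter probe set read 59.0, 59.9 and 41.9 RMA units on the A16 arrays in the order first culture, technical repeat and second culture, and 2520, 2423 and 2558 on the Colony arrays in the same order. The groups lay far apart and the 3 Colony arrays were nearly equal. The log2 mean was 5.64 ± 0.36 in A16 and 11.30 ± 0.04 in Colony (SD, n = 2 cultures), a log2 fold change of 5.65 with a standard error of 0.19, or an FC value of 50.4. An FC value is the ratio of Colony to A16, and a ratio under 1 is written as its inverse with a minus sign. PLIER, the other summary deposited for the same arrays, gave 33.0, 35.2 and 26.8 in A16 and 2122, 2030 and 2171 in Colony for this probe set.

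The dimmer Adh1 probe set read 59.8, 45.4 and 56.1 in A16 and 149, 156.7 and 148.3 in Colony. The groups did not overlap, but the log2 fold change of 1.48 (SE 0.13, FC value 2.78) was far smaller than on the brighter probe set. With PLIER the difference on the dimmer probe set was 1.93 on the scale of log2(value + 16) and 2.46 on that of log2(value), so both summaries placed the 2 probe sets apart. The mean of the 2 probe sets gave 3.57. RefSeq lists an Adh1 pseudogene and Adh6a in the same gene cluster, and which copies each probe set binds was not tested.

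Adh7 is the class IV alcohol dehydrogenase, known from epithelia of the upper digestive tract and for its activity on retinol. It read 23.7, 25.2 and 29.0 in A16 and 573.3, 677.0 and 745.8 in Colony. The A16 values were dim, at percentile 11.4 of all probe sets, so how far they stand above background is not known here. The log2 fold change was 4.68 (SE 0.16), an FC value of 25.6. PLIER gave 46.6 to 53.0 in A16 and 844.3 to 1214 in Colony, and a log2 fold change of 4.40, or 4.02 after adding 16.

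Of the retinaldehyde dehydrogenases, Aldh1a3 alone differed by more than 2-fold. The rule used throughout for a call is a fold change of 2 with an adjusted p under 0.05. For members, passing it is a description and no test. It read 53.6, 60.1 and 51.7 in A16 and 216.2, 199.1 and 207.4 in Colony, without overlap and with little spread in either group. The log2 fold change was 1.94 (SE 0.13) and the FC value 3.83. Aldh1a1 is the widely expressed cytosolic enzyme. It read 30.4, 32.3 and 31.7 in A16 and 35.3, 37.7 and 39.2 in Colony, which was a narrow gap without overlap and a log2 fold change of 0.26 (SE 0.13). Aldh1a2, the main embryonic source of retinoic acid, read 51.9, 49.1 and 43.6 in A16 and 52.3, 50.0 and 51.9 in Colony. These groups overlapped, and the log2 fold change was 0.14 (SE 0.14). That the 3 enzymes differ from one another in their response was not tested, because the contrast had chosen them.

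Crabp1 was the member that was lower in Colony. It read 1791, 2048 and 2415 in A16 and 71.7, 151.1 and 106.8 in Colony. The log2 fold change was -4.35 (SE 0.16) and the FC value -20.4. That standard error rests on averaging the Colony arrays at 71.7 and 151.1. It was 0.24 with the 6 arrays as separate samples and 0.33 with the culture as a random block, against 0.15 with quantile normalization. The A16 level stood at percentile 94.1 of all probe sets and the Colony level at 51.4. PLIER gave 1816, 1922 and 2479 in A16 and 57.3, 45.7 and 34.3 in Colony, with a log2 fold change of -5.68, or -5.22 after adding 16. The order of the 3 Colony arrays changed between the summaries, so no difference among those arrays can be read from either.

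Crabp2, which carries retinoic acid to its receptors, went the other way by a small amount. It read 87.7, 72.5 and 80.3 in A16 and 113.0, 138.4 and 118.7 in Colony, a log2 fold change of 0.61 (SE 0.13) and an FC value of 1.52. The groups did not overlap, and it was the member just outside the fold threshold, while the dimmer Adh1 probe set at 2.78 was the one just inside. Rbp4 read 36.2, 37.4 and 34.8 in A16 and 36.2, 37.8 and 43.9 in Colony. These values overlapped, with a log2 fold change of 0.17 (SE 0.14) from RMA and -0.01 from PLIER.

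Rarb is a retinoic acid receptor and itself a textbook target of retinoic acid, through a pair of receptor half-sites near its start. It read 36.3, 39.9 and 38.9 in A16 and 49.3, 46.3 and 41.7 in Colony. The RMA groups were close but did not overlap, the PLIER groups overlapped, and the log2 fold change was 0.21 (SE 0.14, FC value 1.16). Without Colony biological replicate 2 it was 0.31, and without replicate 1 it was 0.11. The probe set was dim in both groups.

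**Figure D1:**
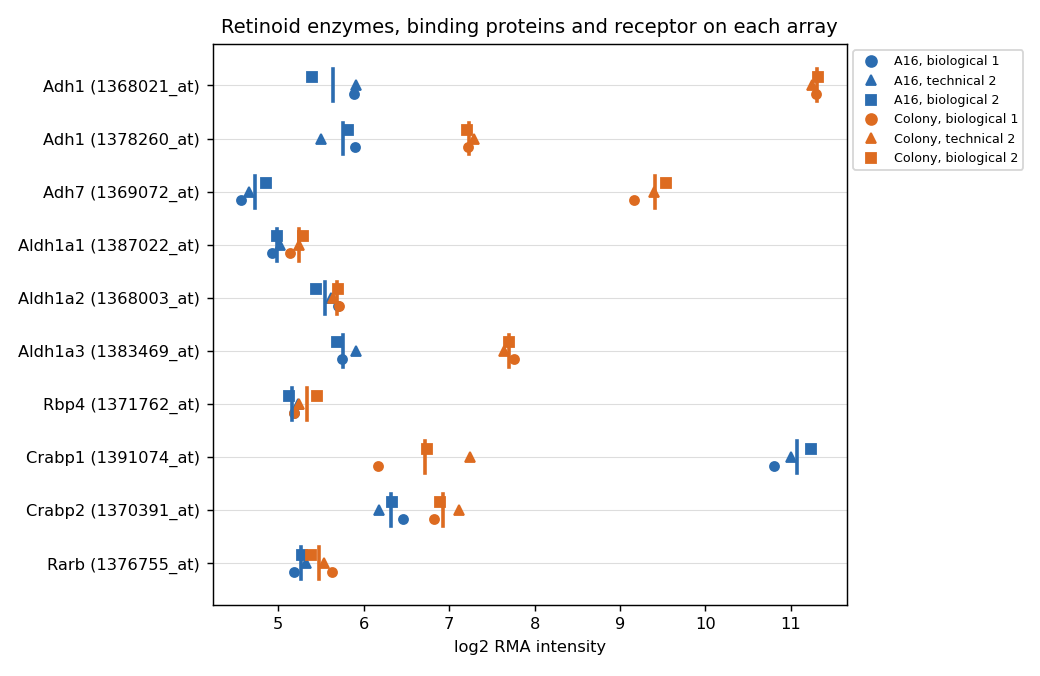
Log2 RMA intensity (x axis) of the 10 member probe sets (y axis) on each of the 6 arrays, with the vertical bars at the mean of the 2 cultures per group. The brighter Adh1 probe set, Adh7 and Crabp1 are split by 4 or more log2 units, Aldh1a3 and the dimmer Adh1 probe set by 1.94 and 1.48, and the other 5 by under 1.

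Of the 10 probe sets, 4 passed the rule as higher in Colony, 1 passed as lower and 5 did not pass. Over all probe sets 4.00% passed as higher and 5.81% as lower. By gene, taking the brightest probe set, 3 of 9 were higher and 1 was lower, where 4.36% of all genes were higher and 4.75% lower, and the median log2 fold change was 0.26 against 0.05 over all genes. The RMA values of the groups did not overlap for 8 of the 10 probe sets, with a background of 45.9% over the array. Since the same contrast had chosen the members, nothing is read from these shares. Leaving out Colony biological replicate 2 gave FC values of 49.5 and 2.83 for the 2 Adh1 probe sets, 23.4 for Adh7, 3.83 for Aldh1a3 and -20.7 for Crabp1.

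**Figure D2:**
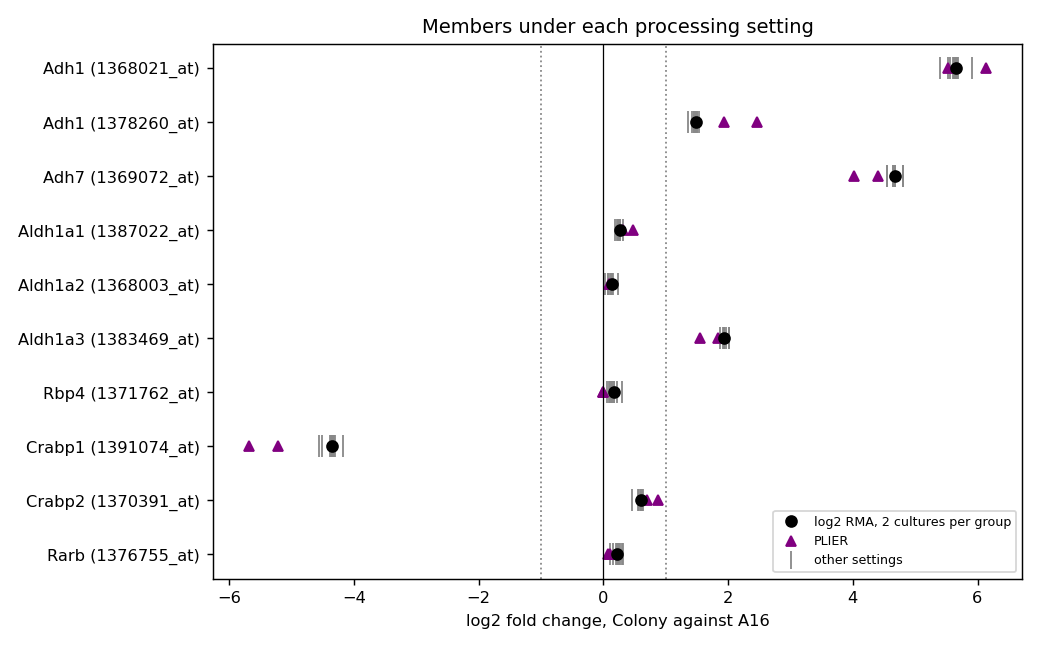
Log2 fold change of Colony against A16 (x axis) for each member probe set (y axis) in the analysis as reported (circles), with PLIER intensities (triangles) and under the other settings (ticks); dotted lines mark a 2-fold change. The 5 probe sets past 2-fold stay past it throughout, and the PLIER values lie farther out for Crabp1 and the dimmer Adh1 probe set.

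Other genes of the retinoid pathway were then counted from lists written by role, with the calls of the limma fit over all probe sets and Benjamini-Hochberg adjustment. Of 88 listed genes 69 were measured, of which 4 rose, 6 fell and 59 did not pass. The shares were 5.8% and 8.7%, next to the 4.36% and 4.75% of all genes given above, and the median log2 fold change was 0.01.

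None of the 11 uptake and storage genes passed by limma, and at an unadjusted p under 0.05 0 were higher and 1 was lower. The share of all genes at that unadjusted p and any fold was not counted. Nothing is therefore read from such counts, here or below. Stra6, the membrane receptor for Rbp4, had a log2 fold change of 0.17 (adjusted p = 0.449 by limma), and Lrat, which esterifies retinol for storage, had 0.00 at values of 20.4 to 23.0 RMA units in both groups.

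Of 6 intracellular binding proteins, Rbp2 rose. Rbp2 is the cellular retinol binding protein of the intestinal lining, which offers retinol and retinal to enzymes. It read 83.5, 92.5 and 92.0 in A16 and 342.4, 363.3 and 426.1 in Colony, a log2 fold change of 2.11 (SE 0.15, adjusted p = 0.000178 by limma). Its groups were well apart. Fabp5, which can carry retinoic acid to another receptor, had a log2 fold change of 0.21 with overlapping groups.

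Among 16 enzymes of retinol and retinal oxidation and reduction, 1 rose and 2 fell. The aldo-keto reductase Akr1b8, of a family that reduces retinal, was among the brightest transcripts, with 2967, 3185 and 2686 in A16 and 11360, 10366 and 10420 in Colony. Its log2 fold change was 1.89 (SE 0.14, adjusted p = 0.000211 by limma). Dhrs9, a short-chain dehydrogenase that oxidises retinol, fell from 628.9, 621.3 and 822.7 to 195.1, 185.9 and 264.3, a log2 fold change of -1.68 (SE 0.21, adjusted p = 0.00205 by limma). Both genes kept their calls under the 17 limma alternatives. The methods' t-test, run here on the 2 cultures per group, called no probe set after Benjamini-Hochberg adjustment and 2383 unadjusted. With so few cultures that test has little power after adjustment, so no conclusion about these genes is drawn from it. At an unadjusted p under 0.05 and any fold, limma had 4 genes of this list higher and 4 lower.

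Rdh10 encodes the principal retinol dehydrogenase of embryonic retinoic acid synthesis. It read 317.2, 307.5 and 442.0 in A16 and 141.7, 149.3 and 191.3 in Colony, and fell by 1.16 on the log2 scale (SE 0.21, adjusted p = 0.00965 by limma). This call was fragile: without A16 biological replicate 2 the log2 fold change was -0.90 and without Colony biological replicate 1 it was -0.96, both under 2-fold. A dimmer Rdh10 probe set read 54.2 to 68.4 in A16 and 54.3 to 67.1 in Colony, with a log2 fold change of 0.04, and the mean of both probe sets gave -0.56. Dhrs3, which turns retinal back into retinol, had a log2 fold change of -0.16 (adjusted p = 0.473 by limma).

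Of 6 clearance genes, Cyp26b1 rose. It is one of the cytochromes that inactivate retinoic acid. It read 295.1, 275.2 and 249.9 in A16 and 515.9, 686.8 and 767.6 in Colony, a log2 fold change of 1.34 (SE 0.17, adjusted p = 0.00209 by limma). The groups did not overlap. A dimmer Cyp26b1 probe set overlapped between the groups, with a log2 fold change of 0.19, and the mean of the 2 was 0.77, under 2-fold. Cyp26a1, the family member best known as a rapid retinoic acid target, read 42.2 to 46.0 in A16 and 45.7 to 59.5 in Colony, a log2 fold change of 0.23 (adjusted p = 0.341 by limma).

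Of 11 receptors and cofactors, Rarg fell. It read 292.5, 309.3 and 439.3 in A16 and 213.0, 201.7 and 130.4 in Colony, a log2 fold change of -1.14 (SE 0.27, adjusted p = 0.0228 by limma). A dimmer Rarg probe set was also lower, with a log2 fold change of -2.66 (SE 0.48, adjusted p = 0.00865 by limma) and a wide spread of 65.2 to 285.0 in A16. On the brighter probe set the call was lost without A16 biological replicate 2 (-0.87) and without Colony biological replicate 2 (-0.81), as well as with the 6 arrays taken as separate samples (-0.94) and with the technical repeat averaged with replicate 2 (-0.82). Rara had a log2 fold change of -0.79 (adjusted p = 0.0679 by limma) and passed the rule, at -1.14, when A16 biological replicate 1 was left out. Rxra, with -0.41, and Rxrb, with 0.12, did not pass. Among the cofactors, a dimmer Ncoa1 probe set passed as higher, at 1.14 (adjusted p = 0.0028 by limma). The brightest Ncoa1 probe set had 0.89 and another had -0.05. A dimmer Ncor1 probe set passed as lower, at -1.65 (adjusted p = 0.0321 by limma). The brightest Ncor1 probe set had 0.67 and another had -0.60.

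Of 19 genes known as retinoic acid targets in other cells, 1 rose, 3 fell and 15 did not pass. Hoxa5, a homeobox gene, read 38.0, 33.1 and 27.0 in A16 and 146.3, 181.1 and 139.5 in Colony, a log2 fold change of 2.28 (SE 0.18, adjusted p = 0.000276 by limma). Bhlhe40, a transcriptional repressor, had a log2 fold change of -2.49 (adjusted p = 0.000572 by limma). It read 132.4 to 214.3 in A16 and 27.2 to 38.7 in Colony. Tgfb2, a secreted growth factor, fell by 2.17 (adjusted p = 0.000421 by limma) and by 1.63 on its other probe set. Plat, the tissue plasminogen activator, fell by 1.52 on the log2 scale (adjusted p = 0.00112 by limma), from 108.8 to 122.8 RMA units in A16 down to 36.0 to 49.6 in Colony. The genes of this list that passed moved in both directions. Rarb, Cyp26a1 and Tgm2 are often used as readouts of retinoic acid, and none of them passed. Only Tgm2 (log2 fold change -0.28) is on this list. Rarb is a member, and Cyp26a1 is on the clearance list, where Cyp26b1 rose. Rarb and Cyp26a1 were dim in both groups. Whether retinoic acid signalling differed between the groups was not tested.

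**Figure D3:**
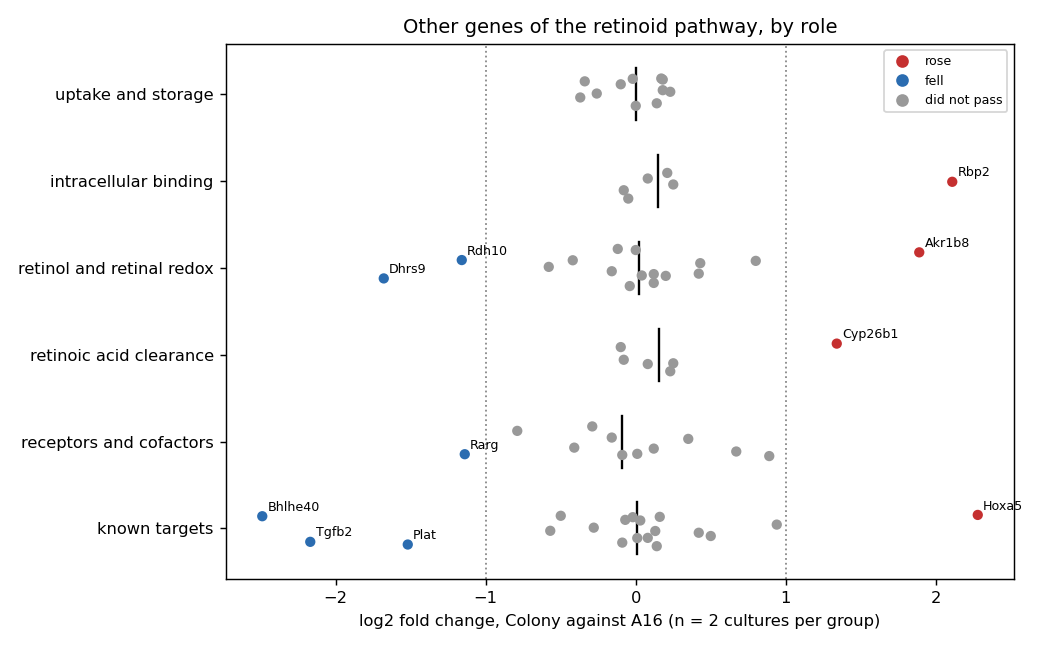
Log2 fold change of Colony against A16 (x axis, n = 2 cultures per group) of 69 retinoid pathway genes outside the member set, one point per gene in rows by role, with a bar at the median of each row and dotted lines at 2-fold. Each row is centred near 0, with 4 genes that rose and 6 that fell lying outside the dotted lines.

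**Figure D4:**
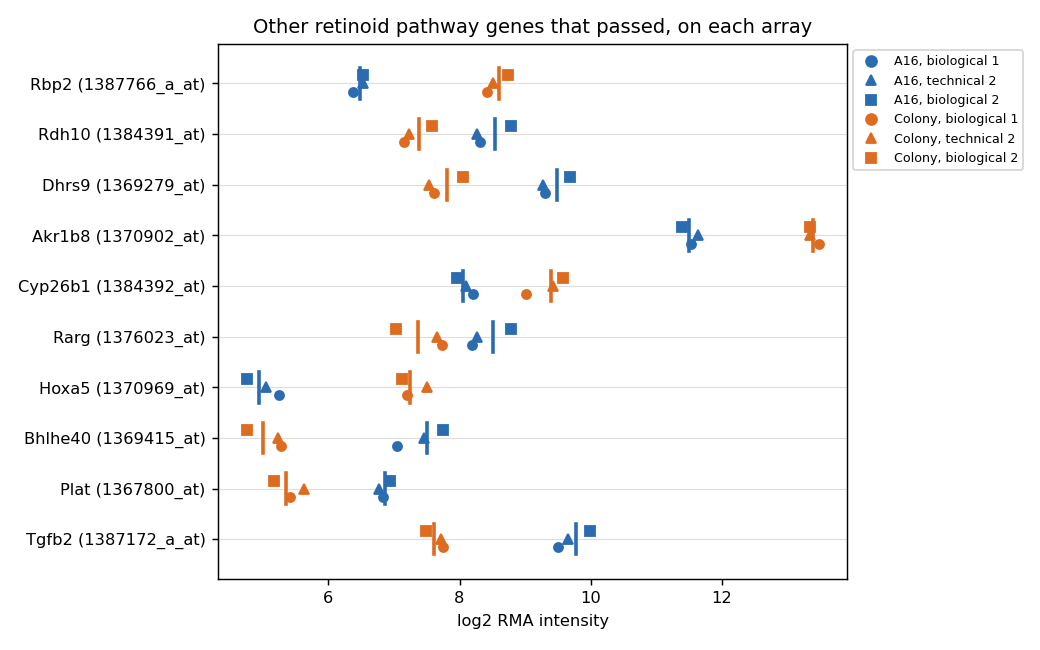
Log2 RMA intensity (x axis) on each array of the 10 pathway genes that passed (y axis), with vertical bars at the mean of the 2 cultures per group. No gene overlaps between the groups, and the gap between the nearest A16 and Colony arrays is narrowest for Rarg.

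Adh1 and Adh7 lie in one cluster of 10 annotated genes on chromosome 2, from Adh7 to Adh5. The 3 other cluster genes with a probe set did not pass. Adh6a, next to Adh1, had a log2 fold change of -0.03, Adh4 had 0.20 and Adh5, which encodes the widely expressed formaldehyde-clearing class III enzyme, had 0.43 (adjusted p = 0.0527 by limma). Including these and the 5 nearest measured genes on each side, 1 of 13 neighbours rose and none fell by limma, with a median log2 fold change of 0.06. Over all genes 4.36% were called higher and 4.75% lower. At an unadjusted p under 0.05 and any fold, 4 of these neighbours were higher and 1 was lower. The one that rose was Pdha2, a testis form of the pyruvate dehydrogenase subunit, with a log2 fold change of 4.13 (adjusted p = 2.85e-05 by limma). It lies 32 annotated genes beyond the cluster and was dim in A16, at percentile 6.2. The other 12 measured neighbours did not pass.

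Around Aldh1a3 on chromosome 1, 1 of 10 neighbours rose, 1 fell and 8 did not pass, beside the same shares of all genes. Pcsk6, a proprotein convertase, had a log2 fold change of -3.67 (adjusted p = 1.56e-05 by limma). Synm, an intermediate filament protein, rose by 1.02 (adjusted p = 0.0036 by limma), just past 2-fold. That call was lost without A16 biological replicate 2 (0.97) and without Colony biological replicate 1 (0.89), and the mean of its probe sets gave 0.31. Selenos, at -0.95, passed the rule without A16 biological replicate 2 (-1.10) and without Colony biological replicate 2 (-1.05).

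**Figure D5:**
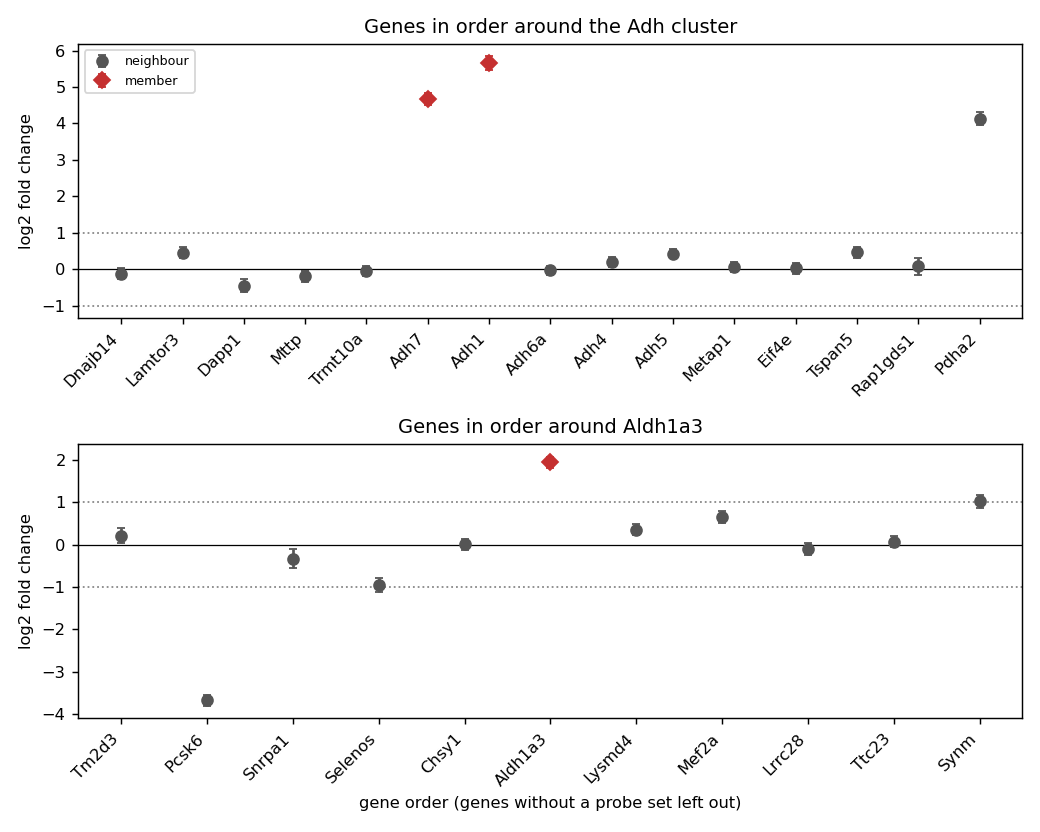
Log2 fold change of Colony against A16 (y axis, bars show the standard error of the fit, n = 2 cultures per group) for genes in their order along the chromosome (x axis, not to distance) around the Adh cluster and around Aldh1a3. Adh7 and Adh1 stand at 4.68 and 5.65, and of the genes drawn around them only Pdha2, at 4.13, lies past 2-fold. Near Aldh1a3, Pcsk6 lies at -3.67 and Synm at 1.02.

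The promoter windows were searched on both strands for the receptor half-site hexamers AGGTCA, as well as GGGTCA, plus GGTTCA, and also AGTTCA, as direct repeats spaced by 1, 2 or 5 bases. Such repeats were rare over the 33469 windows, at 0.233%, 0.170% and 0.382% in that order, while a single hexamer was present in 44.4%. Among the members only the Rarb window held a repeat. It is shown because it is the arrangement textbooks describe for this gene, with the half-sites in capitals, and lies at chr15:11336416-11336432 (+ strand, GRCr8), from 25 to 41 bases after the annotated start.
Rarb: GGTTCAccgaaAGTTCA
Rarb, the gene with the repeat, had a log2 fold change of 0.21 and was dim in both groups. The windows of Adh1 and Adh7 each held 1 single hexamer, and those of Aldh1a3 and Crabp1 held none. Whether these motifs bear on the values was not tested. A match is a stretch of letters and no evidence of binding, and the absence of one says nothing about sites outside the window.

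The profiles most like those of the 3 dehydrogenases that were higher in Colony were found by the root mean square difference of log2 RMA over the 6 arrays, each profile being taken relative to its A16 mean. The likeness is a description over arrays that share the same 2 groups. For Adh1 they were the matrix metalloproteinases Mmp10 (0.13) and Mmp3 (0.20) and the secretogranin Scg2 (0.29). For Adh7 they were the lysophosphatidic acid receptor Lpar1 (0.12), the tubulin Tubb2a (0.16) and the xanthine dehydrogenase Xdh (0.19). For Aldh1a3 they were Vopp1 (0.04), the retinal-reducing Akr1b8 (0.05) and Acaa2 (0.06), an enzyme of fatty acid oxidation.

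Markers of cells known to express some of these genes were examined beside them. For 9 hepatocyte markers the summed RMA intensity was 346.8 to 403.8 in A16 and 419.1 to 447.5 in Colony. Cps1 was the 1 that rose, and Alb stayed at 48.4 to 66.1 over all 6 arrays. For 9 markers of epithelium and keratinocytes the sum was 1055 to 1145 in A16 and 3281 to 4052 in Colony. It was carried by Krt8, a keratin of simple epithelium, with 2891 to 3668 in Colony, while Epcam read 21.9 to 26.4 on all arrays. Cdh1 was also higher, under 2-fold, with a log2 fold change of 0.74 (adjusted p = 0.00979 by limma). At an unadjusted p under 0.05 by limma 2 epithelial markers were higher and 0 lower. For 7 adipocyte markers no gene passed by limma (1 higher and 1 lower at an unadjusted p under 0.05), and the sums overlapped at 450.0 to 700.2 in A16 and 395.5 to 519.2 in Colony. For 8 markers of stellate cells and pericytes Cspg4 rose and the sums overlapped. Hand2 went the other way, under 2-fold, with a log2 fold change of -0.86 (adjusted p = 0.0118 by limma). At an unadjusted p under 0.05 by limma 1 marker of this list was higher and 1 lower. For 10 macrophage and leukocyte markers the sum was 1316 to 1514 in A16 and 1725 to 1834 in Colony. Csf1r was higher (log2 fold change 4.01, adjusted p = 4.15e-05 by limma) and Ptprc stayed between 34.7 and 42.2 throughout. Cd14 went the other way, under 2-fold, with a log2 fold change of -0.56 (adjusted p = 0.0366 by limma). It read 891.3 to 1020 in A16 and 533.7 to 697.3 in Colony. Of 12 fibroblast markers none rose by limma and 3 fell, namely Col1a1, Col3a1 and Thy1. Over all genes 4.36% were called higher and 4.75% lower. At an unadjusted p under 0.05 by limma and any fold, 1 was higher and 5 were lower. The sums were 85212 to 96250 in A16 and 67325 to 70705 in Colony. The part of these marker changes in the values of the retinoid genes was not tested.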

How the data were processed

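Total RNA of F111 cells was labelled by the authors and hybridised to Affymetrix Rat 230 2.0 arrays, and the same 6 arrays (3 per group) were deposited as linear intensity summarised by RMA and by PLIER. Neither version is given in the sources used here. The table held 31099 probe sets, and without its 57 controls 31042 entered the tests, dim ones included. Symbols came from the platform annotation, updated through a RefSeq gene table: 20826 probe sets had 1 symbol, 436 several and 9780 none. No detection calls were used, so which probe sets lay above background is not known. Precision is limited by how few arrays there are.

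RMA values were put on the log2 scale, and each technical array, whose culture the labels do not name, was averaged with biological replicate 1, leaving 2 cultures per group. Colony was compared with A16 by limma (3.58.1, R 4.3.3; lmFit and eBayes, prior df 4.76) with Benjamini-Hochberg adjustment over all probe sets. Calls were made at more than 2-fold with an adjusted p below 0.05. The methods' t-test, run on the same 2 cultures per group, was an alternative. Others were PLIER (a pseudocount of 16 or none), other normalisations, replicate units, a filter at percentile 25, eBayes with trend and leaving out each replicate. The fit was also run on simulated independent cultures with known changes. That run cannot show how separate the real cultures were, and nothing is concluded from it here.

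The members and lists were chosen with earlier results of these data known. Named were every member, every called pathway gene up to 6 per list, a fixed set of pathway genes whatever their call (not all are reported here), called neighbours, and the 3 most alike genes for Adh1, Adh7 and Aldh1a3. A gene was taken by its brightest probe set. Selenos, Ncoa1, Ncor1 and the single cell type markers were picked after their values were seen. Promoter sequences were from RefSeq (GRCr8). Arrays of other groups were not analysed here.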

Additional observations from a re-analysis of the deposited data

How the results depend on the processing

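The counts of members past the rule stayed at 3 genes higher and 1 lower under the 17 limma alternatives, and no called value changed sign in them. Over all probe sets 1242 were called higher and 1803 lower, with 1282 to 1328 and 1498 to 2318 when 1 replicate was left out. The pathway counts of 4 and 6 ranged from 4 to 5 and from 4 to 7 when 1 replicate was left out. Neighbours called higher fell from 2 to 1 without A16 replicate 2, without Colony replicate 1 and with the mean of all probe sets of a gene, where Synm was lost. Neighbours called lower rose from 1 to 2, with Selenos added, when the 6 arrays were separate samples, when the technical array was averaged with biological replicate 2, and without replicate 2 of either group. The cause was not tested. Leaving out replicates therefore gave 1 to 2 neighbours higher and 1 to 2 lower. The methods' t-test called 2383 probe sets unadjusted (1070 higher and 1313 lower), where limma called 3136. After Benjamini-Hochberg adjustment it called 0 higher and 0 lower, over all probe sets and so among members, pathway genes and neighbours too. Unadjusted, its counts were 3 and 1 members, 4 and 4 pathway genes, and 2 and 1 neighbours, higher and lower. The member counts describe genes that the same contrast had chosen and carry no test.

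The replicate numbers share only a number, and the deviations of same-numbered cultures from their group means correlated at -0.15. With the replicate number as a block, 1254 probe sets were called higher and 1867 lower, with 3 members higher and 1 lower. With the pairing crossed, an alternative chosen after seeing the data, the counts were 1256 and 1879.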
